A study of Mus musculus with 3 samples.

Results

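Imprinted genes were examined in sorted sensory ganglion cells of the mouse embryo. The group holds 45 genes of known imprinted loci, out of 41388 genes in the deposited tables. The 45 were listed by symbol, by a rule that uses no values, but with earlier results of these data known. Of these, 44 were matched by symbol. Snrpn had no row under its current Ensembl identifier, and its exons are counted in a row that GENCODE M21 names Gm38393 (ENSMUSG00000000948). That row contains 2159 of 2159 Snrpn exon bases, which make up 31.6% of its 6831 bases, so its counts are given here as the Snrpn row.

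RNA was sequenced from dorsal root ganglion (DRG) cells sorted by fluorescence from C57BL/6 embryos of both sexes at 12.5 days post coitum. The ganglia came from segment levels T11-S1. The embryos reported Ret, a receptor tyrosine kinase that GDNF-type ligands activate, through EGFP: the genotype label reads Tg(Ret-EGFP)SJ/, whereas the series text describes heterozygotes with EGFP in the Ret locus, and the conflict was not resolved. There was 1 group of 3 pooled libraries and no second condition. Library B pooled 340 ganglia of 17 embryos, library C 300 ganglia of 15 embryos and library D 60 ganglia of 3 embryos, so each value is an average over the embryos of a pool, and D averages over the fewest. Nothing in the labels separates the parental alleles, so allele of origin was not measured.

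At an imprinted locus, DNA methylation set in the egg or sperm marks 1 parental copy, and the neighbouring genes are then expressed mainly from the maternal or the paternal allele. The mark survives in the embryo because zinc finger proteins such as ZFP57 recruit TRIM28 to it and DNMT1 copies it at each division. Many imprinted genes act on growth: Igf2 promotes it, whereas Igf2r, Grb10 and Cdkn1c restrain it. Others are known for their expression in the nervous system, among them Ndn, Nnat, Magel2 and Ube3a.

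Promoter sequence is shown for 6 genes, 4 that stood higher in library D (Grb10, Slc38a4, Peg3 and Copg2) and a pair that stood lower there (Nnat and Ndn), as examples of CpG content in genes that differed in opposite directions. Each run is the 250 bases before a RefSeq start site on the gene's strand, 5′ to 3′ (build GRCm38.p6), and capitals mark every CG dinucleotide. The positions are chr11:12037421-12037670 on the minus strand for Grb10, chr15:97055957-97056206 on the minus strand for Slc38a4, chr7:6730420-6730669 on the minus strand for Peg3, chr6:30896795-30897044 on the minus strand for Copg2, chr2:157559828-157560077 on the plus strand for Nnat and chr7:62348027-62348276 on the plus strand for Ndn. Where RefSeq lists several starts, as for Grb10 with 2 and Slc38a4 with 3, the first is shown.
Grb10: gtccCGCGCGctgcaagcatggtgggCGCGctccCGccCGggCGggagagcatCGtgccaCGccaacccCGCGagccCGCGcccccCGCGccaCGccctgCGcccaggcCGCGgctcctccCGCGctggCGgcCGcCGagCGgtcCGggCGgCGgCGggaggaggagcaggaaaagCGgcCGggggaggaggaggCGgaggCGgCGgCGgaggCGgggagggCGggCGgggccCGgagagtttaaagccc
Slc38a4: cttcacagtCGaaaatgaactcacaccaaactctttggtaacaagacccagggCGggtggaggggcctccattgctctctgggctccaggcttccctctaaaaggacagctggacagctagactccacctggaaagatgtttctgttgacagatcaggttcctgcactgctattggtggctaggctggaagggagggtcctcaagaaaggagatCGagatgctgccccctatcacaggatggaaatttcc
Peg3: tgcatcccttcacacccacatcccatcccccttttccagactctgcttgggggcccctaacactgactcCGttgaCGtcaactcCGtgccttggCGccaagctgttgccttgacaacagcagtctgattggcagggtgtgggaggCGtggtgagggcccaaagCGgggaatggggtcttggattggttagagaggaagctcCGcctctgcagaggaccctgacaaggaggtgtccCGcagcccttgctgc
Copg2: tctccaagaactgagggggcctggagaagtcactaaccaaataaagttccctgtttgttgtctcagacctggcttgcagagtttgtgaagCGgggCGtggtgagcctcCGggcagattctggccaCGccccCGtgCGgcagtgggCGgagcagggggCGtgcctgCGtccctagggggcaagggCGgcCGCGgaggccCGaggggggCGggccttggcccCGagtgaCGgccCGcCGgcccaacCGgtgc
Nnat: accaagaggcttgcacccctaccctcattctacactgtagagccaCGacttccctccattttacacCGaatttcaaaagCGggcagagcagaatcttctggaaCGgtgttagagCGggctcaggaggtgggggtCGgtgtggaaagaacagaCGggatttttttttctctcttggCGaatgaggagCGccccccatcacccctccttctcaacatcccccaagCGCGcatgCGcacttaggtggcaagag
Ndn: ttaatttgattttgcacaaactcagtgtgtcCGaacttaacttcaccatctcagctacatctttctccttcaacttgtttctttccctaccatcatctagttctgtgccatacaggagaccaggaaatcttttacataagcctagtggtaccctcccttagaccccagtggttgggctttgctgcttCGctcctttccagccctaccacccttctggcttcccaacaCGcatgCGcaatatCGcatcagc

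The printed runs held 40 CG dinucleotides for Grb10, 19 for Copg2, 12 for Nnat, 8 for Peg3, 5 for Ndn and 3 for Slc38a4. The 4 genes higher in D thus held both the highest and the lowest number of the 6 runs. For Grb10 this depends on the start shown: its first window of 300 bases had 45 and its second 9. Of other genes higher in D, the Igf2r window had 34, and those of Asb4 had 6 and 8. RefSeq windows of 300 bases (250 before to 50 after a start) were found for 38 of the 45 genes, 58 windows in all, with a median of 15 CG dinucleotides. The median was 7 over all 32851 windows and 21 over the windows of genes detected in these cells. The hexamer TGCCGC, the ZFP57 recognition sequence, or its reverse complement GCGGCA was present in 22.4% of the imprinted genes' windows, in 11.6% of all windows and in 20.0% of the windows of detected genes. Several windows of a gene can overlap, and a match in letters is no measured site. In RefSeq, Peg3 and Usp29 start 164 bases apart on opposite strands, and their windows share 263 bases. The counted Usp29 row spans only chr7:6961160-6963769 and does not contain that start.

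Library B held 18072199 counts, library C 11666241 and library D 20966139. TPM, a level that divides each count by gene length and scales every library to the same total, was computed within each library, and a gene counted as detected where all 3 libraries reached at least 1 TPM. A count of 0 allows up to 3 counts, or 0.166, 0.257 and 0.143 CPM (counts scaled to the library total) in B, C and D, which covers counting error only. All 12 neuron markers were detected, with summed levels of 37382, 29646 and 24134 TPM in B, C and D. All 10 glia and Schwann precursor markers and 7 of 10 erythroid markers were detected as well, so detection alone does not set neurons apart. Markers of other cell types were also counted, although cells had been sorted for Ret-EGFP, and which cells carried them was not tested. Summed TPM in B, C and D was 3088, 1720 and 4875 for 10 glia and Schwann precursor markers, 2864, 1578 and 408 for 10 erythroid markers, and 56.2, 45.3 and 291 for 10 mesenchyme markers. It was 355, 260 and 125 for 10 sympathetic and chromaffin markers and 97.1, 59.8 and 41.3 for 8 macrophage markers. Of 7 spinal cord markers none was detected, and Olig2, Lbx1, Nkx2-2 and Lhx5 were at 0 in every library.

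Of the 45 imprinted genes, 30 were detected, 66.7%, against 28.7% of all genes. The median of their mean levels was 9.24 TPM, and 22.7 TPM among the 30 detected, where all detected genes had 13.6 TPM. Together they held 0.509%, 0.747% and 0.550% of TPM in B, C and D. Genes textbooks assign to the maternal allele were detected in 14 of 21 cases and those assigned to the paternal allele in 15 of 22. Dlk1, Rtl1 and Rian had no count in any library. In bulk samples such as these, fewer cells of a type and less RNA per cell cannot be told apart.

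**Figure D1:**
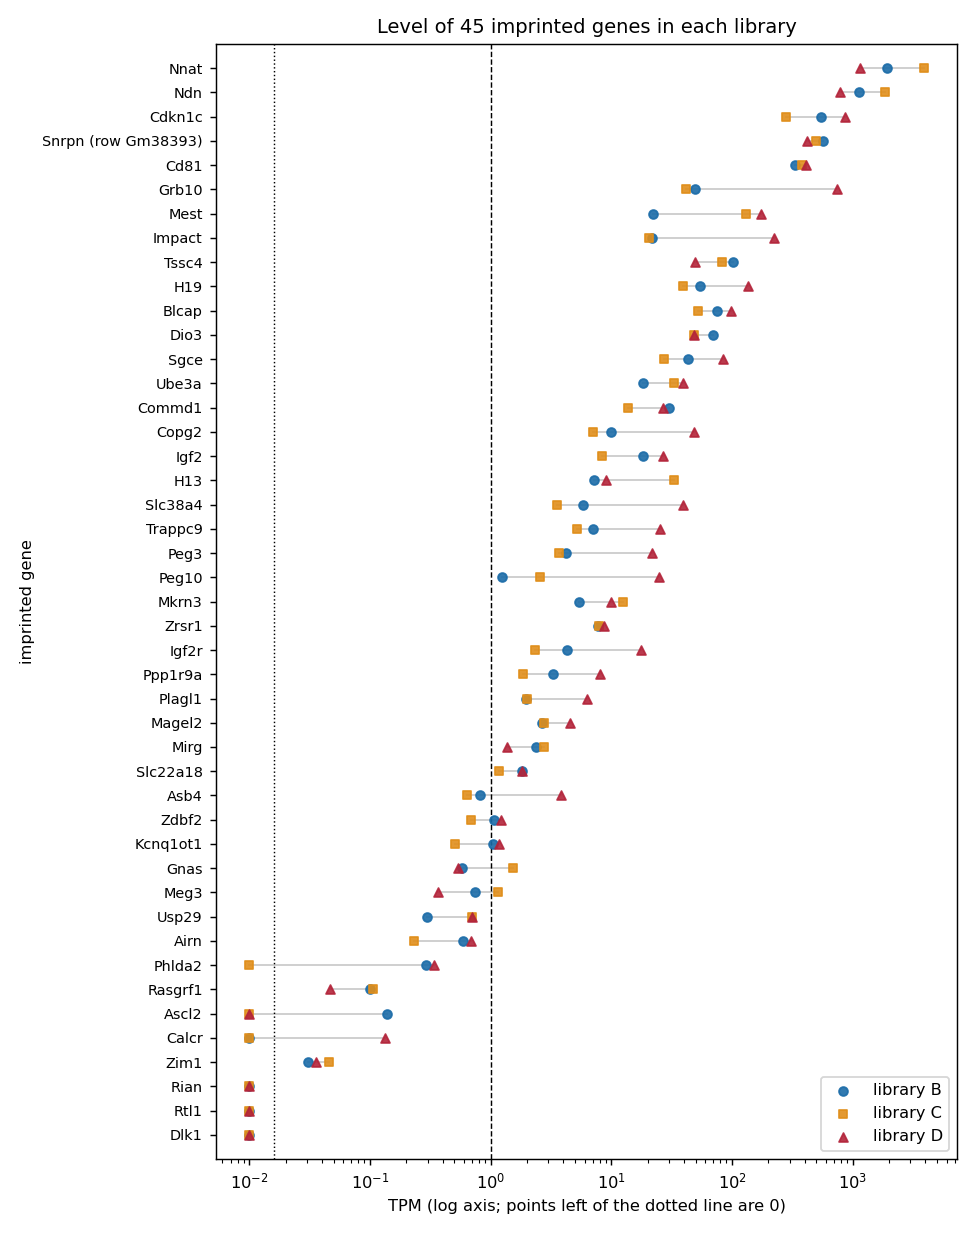
Level of each imprinted gene in TPM (log axis) in libraries B, C and D. The dashed line marks the detection limit of 1 TPM, points left of the dotted line are at 0, and genes are ordered by mean within detected and not detected. Nnat and Ndn lie at the top, and Grb10, Impact and Peg10 show library D far to the right of B and C.

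Nnat, which encodes neuronatin, a small membrane proteolipid of the endoplasmic reticulum, was the most abundant of the group in TPM. It is located at chr2:157560078-157562522 on the plus strand, inside the Blcap locus (ENSMUSG00000067786), and reached 1935, 3879 and 1149 TPM in B, C and D (2321 ± 1405, SD, n = 3). Its mean level exceeded that of 99.7% of detected genes. Blcap, whose transcript encloses it, stood at 75.5, 52.5 and 98.6 TPM, so Nnat was the higher of the pair in every library, with a mean log2 ratio of 4.81 ± 1.34 (SD, n = 3).

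The Prader-Willi and Angelman domain on chromosome 7 held the next most abundant gene in TPM. Ndn, encoding necdin, a MAGE family protein of post-mitotic neurons, was at 1127, 1848 and 788 TPM. Its level was highest in C and lowest in D, as for Nnat. Magel2, a related ubiquitin ligase regulator, was at 2.66, 2.75 and 4.51 TPM, and the log2 ratio of Ndn to it was 8.52 ± 0.99 (SD, n = 3). Mkrn3, a RING finger protein, was at 5.40, 12.4 and 9.88 TPM. The Snrpn row, covering a component of the spliceosomal Sm ring, was at 571, 498 and 417 TPM. In counts it exceeded Ndn in every library, with 35160, 20414 and 21966 against 16784, 18308 and 10038 in B, C and D. Its TPM divides by 6831 bases, of which 31.6% are Snrpn exons, so its rank among these genes depends on that length. Ube3a, a ubiquitin ligase with maternal expression in neurons, was at 18.3, 33.1 and 39.2 TPM and lay below the Snrpn row in each library (log2 ratio 4.09 ± 0.79, SD, n = 3).

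The Kcnq1ot1 and H19/Igf2 domains lie side by side on chromosome 7. Cdkn1c, encoding the cyclin-dependent kinase inhibitor p57, was at 548, 278 and 862 TPM. Cd81, a tetraspanin, was at 330, 378 and 409 TPM, a spread of only 10.6% of its mean. Tssc4, a factor in spliceosome assembly, was at 102, 82.5 and 49.8 TPM. In TPM these 3 genes were well above Kcnq1ot1, the long noncoding RNA that silences the paternal domain. Kcnq1ot1 had 1.05, 0.506 and 1.17 TPM over its 84395 bases. In counts, Tssc4 was above Kcnq1ot1 in B and C but below it in D (1624, 871 and 676 against 796, 256 and 759). Cdkn1c exceeded Kcnq1ot1 by a log2 ratio of 9.22 ± 0.27 (SD, n = 3), the smallest SD among the pairs. Slc22a18, a transporter, was at 1.81, 1.16 and 1.81 TPM. Ascl2 and Phlda2, known from trophoblast and placental growth, stayed below 1 TPM, with means of 0.0459 and 0.212 TPM.

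H19, a noncoding RNA, was at 54.4, 39.4 and 134 TPM. Igf2, the fetal growth factor, was at 18.3, 8.42 and 26.7 TPM. H19 was the higher gene in all 3 libraries, and the log2 ratio of Igf2 to H19 was -2.04 ± 0.41 (SD, n = 3). Without gene length, the log2 ratio in CPM was -0.77. Igf2r, which clears IGF2 from the cell surface, was at 4.34, 2.35 and 17.5 TPM, and its antisense noncoding RNA Airn at 0.588, 0.233 and 0.688 TPM. The kit does not mark strand, so reads of overlapping antisense genes cannot be separated. Igf2r and Airn overlap in position, but their counted exons share no bases. Igf2r over Airn had a log2 ratio of 3.63 ± 0.93 (SD, n = 3).

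Along the Dlk1 to Dio3 interval (chr12:109452823-110281097) most genes had no counts. Of 96 genes in the tables, 84 had no count in any library, and of 54 microRNA genes 48 had none, with no total above 3. The annotation, strand setting and read filters behind the counts are unknown, their part in these zeros was not tested, and Gapdh, a widely expressed enzyme gene, was also low at 796, 299 and 272 counts. Dlk1, a Notch-related ligand, was at 0 in all 3 libraries, as were Rtl1, a retrotransposon-derived gene, and Rian, a snoRNA host. Meg3, the maternal noncoding RNA of the domain, had 121, 124 and 51 counts (0.742, 1.14 and 0.366 TPM), at least 12.6-, 12.9- and 5.32-fold above the level that 3 counts of Dlk1 would give in B, C and D. Mirg, a microRNA host, was at 2.36, 2.74 and 1.37 TPM. Dio3, the deiodinase that inactivates thyroid hormone, was the abundant gene of the interval at 70.0, 48.2 and 48.5 TPM, with a coefficient of variation of 22.5%.

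Peg3, a zinc finger gene, was at 4.24, 3.68 and 21.9 TPM and its divergent neighbour Usp29, a deubiquitinase, at 0.297, 0.703 and 0.696 TPM. Zim1 was near 0, with a mean of 0.0373 TPM. Mest, a hydrolase-fold gene, was at 22.3, 132 and 175 TPM. Copg2, a COPI coat subunit, was at 9.98, 7.11 and 48.4 TPM. Mest lay above Copg2 in each library, but the log2 ratio ranged from 1.16 in B to 4.21 in C, with 1.86 in D. The genes share 902 exon bases, 22.9% of Mest and 20.1% of Copg2, whose reads cannot be assigned with certainty without strand.

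Sgce, encoding epsilon-sarcoglycan, was at 43.1, 27.4 and 84.6 TPM. Peg10, a retrotransposon-derived gene read from the same promoter region, was at 1.25, 2.55 and 25.0 TPM, below Sgce in every library. The log2 ratio of Peg10 to Sgce was -5.11, -3.43 and -1.76 in B, C and D. Ppp1r9a, encoding the actin-binding scaffold neurabin, was at 3.28, 1.85 and 8.07 TPM. Asb4 was at 0.818, 0.636 and 3.83 TPM, so only D passed the detection limit, and Calcr, the calcitonin receptor, had a mean of 0.0442 TPM.

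Among single loci, Grb10, an adaptor that dampens insulin and IGF receptor signalling and is also reported to bind RET, was at 49.1, 41.2 and 735 TPM. Impact, an inhibitor of the GCN2 kinase, was at 21.8, 20.4 and 223 TPM. Slc38a4, an amino acid transporter, was at 5.84, 3.54 and 39.0 TPM. In all 3 genes B and C lay together and D lay apart. Trappc9, a vesicle tethering subunit, was at 6.99, 5.24 and 25.1 TPM, and Plagl1, a zinc finger transcription factor, at 1.95, 1.99 and 6.32 TPM. H13, the signal peptide peptidase, was high in C alone, at 7.18, 33.1 and 9.08 TPM. Commd1, an endosomal sorting protein, was at 30.2, 13.9 and 26.9 TPM, and Zrsr1, the splicing factor retrogene within it, at 7.77, 7.93 and 8.70 TPM, the smallest spread of the group at 6.1% of its mean. Zdbf2, Gnas and Rasgrf1 were not detected, with means of 0.985, 0.880 and 0.0842 TPM. Gnas, the gene of the stimulatory G protein subunit, had only 59, 102 and 46 counts, and it shares 1469 exon bases with Gm20721 and 988 with Nespas; the effect of such overlap on its count was not tested.

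Ratios of neighbouring genes within a library do not depend on its scaling. Of 12 pairs set out in this way, 10 gave a ratio, and Meg3 to Dlk1 and Rian to Meg3 gave bounds because 1 gene was at 0. In 8 of the 10 the first-named gene was higher in all 3 libraries, and in Igf2 to H19 and Peg10 to Sgce it was lower in all 3. With 3 libraries the exact two-sided sign-flip test cannot go below p = 0.25, which every pair reached, so none could pass 0.05. The other ratios not yet given were 3.73 ± 1.30 for Peg3 to Usp29 and 1.47 ± 0.59 for Commd1 to Zrsr1 (log2, SD, n = 3). In CPM, without gene length, Cdkn1c to Kcnq1ot1 had a mean log2 ratio of 3.77, Igf2r to Airn 5.03, Peg3 to Usp29 6.08, Commd1 to Zrsr1 2.32 and Ndn to Magel2 7.02, each in the same direction.

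**Figure D2:**
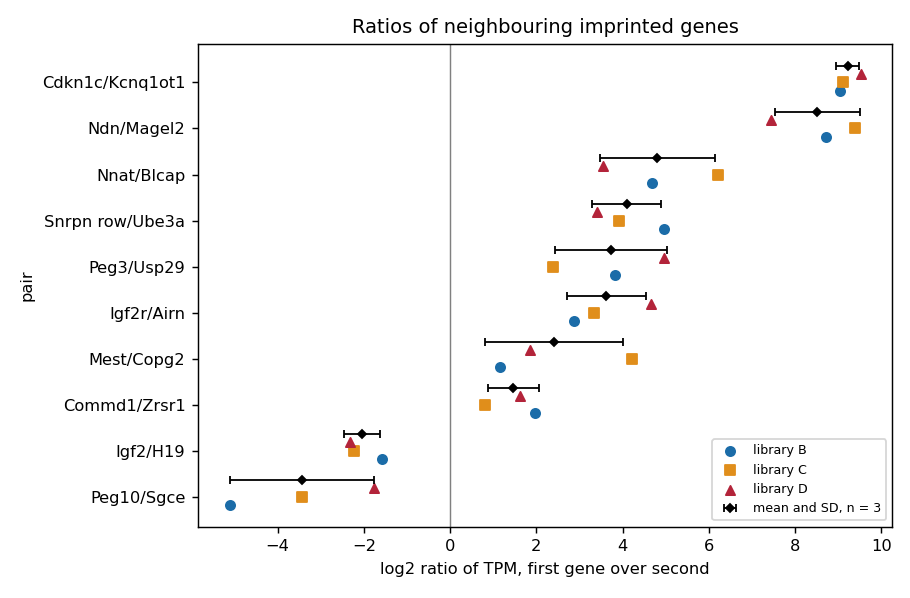
Log2 ratio of TPM, first gene over second, for the 10 pairs with counts in both genes. Coloured points are libraries B, C and D, and the black diamond with bar is the mean and SD (n = 3). Igf2/H19 and Peg10/Sgce lie left of 0 in all libraries, and Mest/Copg2 and Peg10/Sgce show the widest spread, with SDs of 1.60 and 1.68.

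Each library was then set against the other pair with edgeR's quasi-likelihood test and Benjamini-Hochberg adjustment. The lone library is assumed to vary like the others, and 1 residual degree of freedom remains. Nothing in the labels says that the pools differ in condition, so this describes how they differ. The ratio in the fit is taken after TMM scaling of counts, and therefore differs in size from the ratio of TPM. Of the 45 genes, 35 passed the filter on low counts, which counts all libraries alike.

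Library D stood apart in Grb10, Peg10, Impact and Slc38a4, which were higher there, and in Meg3, Nnat, Ndn, Mirg and Tssc4, which were lower. No gene of 13182 passed the adjusted threshold of 0.05 in D by edgeR (0% in either direction, smallest adjusted p 0.191), so these are values with no call. At an unadjusted p under 0.05, 9 of 35 imprinted genes were higher (25.7%), beside 12.6% of all genes, and 6 were lower (17.1%), beside 8.36%. DESeq2 called 5 of the 35 at adjusted p under 0.05 (Grb10, Impact, Peg10 and Slc38a4 higher, Nnat lower), beside 2.75% of all genes called higher and 1.95% called lower. The unfiltered edgeR fit called 10 of 42 imprinted genes, 7 higher and 3 lower, beside 3.96% and 2.55% of all 23553 genes. The median log2 ratio of the 35 genes was -0.07, with 17 higher and 18 lower, and that of all genes tested was -0.01.

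The largest ratio was that of the signalling adaptor Grb10, which was higher in D by 3.32 ± 0.37 on the log2 scale (approximate SE, edgeR adjusted p = 0.191). Its level was 735 TPM in D, a single pool, against 49.1 TPM in B and 41.2 TPM in C. Peg10 had 3.01 ± 0.60, Impact 2.70 ± 0.39 and Slc38a4 2.36 ± 0.51. Copg2 followed at 1.80 ± 0.46, Peg3 at 1.76 ± 0.42, Igf2r at 1.69 ± 0.53, Asb4 at 1.69 ± 0.58 and Trappc9 at 1.34 ± 0.46. All 9 were above both other libraries in TPM, which their choice by this fit made likely.

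The lower genes included the pair with the highest mean TPM. Nnat had a log2 ratio of -2.06 ± 0.60 in D (edgeR adjusted p = 0.199) and Ndn -1.63 ± 0.51 (0.201). Meg3 had -2.07 ± 0.70, Mirg -1.60 ± 0.63 and Tssc4 -1.59 ± 0.47. The Snrpn row had -1.06 ± 0.39. All 6 were below both other libraries in TPM, which their choice by the same fit made likely. Against B alone, without C, the ratio of Nnat in D was -1.44 and that of Peg10 3.63. Neuron markers were lower in D too, in 10 of 12 tested genes (median log2 ratio -0.64). Glia and Schwann precursor markers were higher in 7 of 10 (median 0.81), where 49.5% of all genes tested were higher. All 7 tested erythroid markers were lower (median -3.60), as were all 7 tested sympathetic and chromaffin markers (median -1.34). Summed mesenchyme markers were 291 TPM in D, against 56.2 and 45.3 in B and C. Of 7 tested, 4 were higher and 3 lower (median log2 ratio 0.51). The median TPM of all 10 mesenchyme markers was lower in D, at 1.60, against 3.30 and 2.46 in B and C. The part of these markers in the imprinted genes' differences was not tested.

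**Figure D3:**
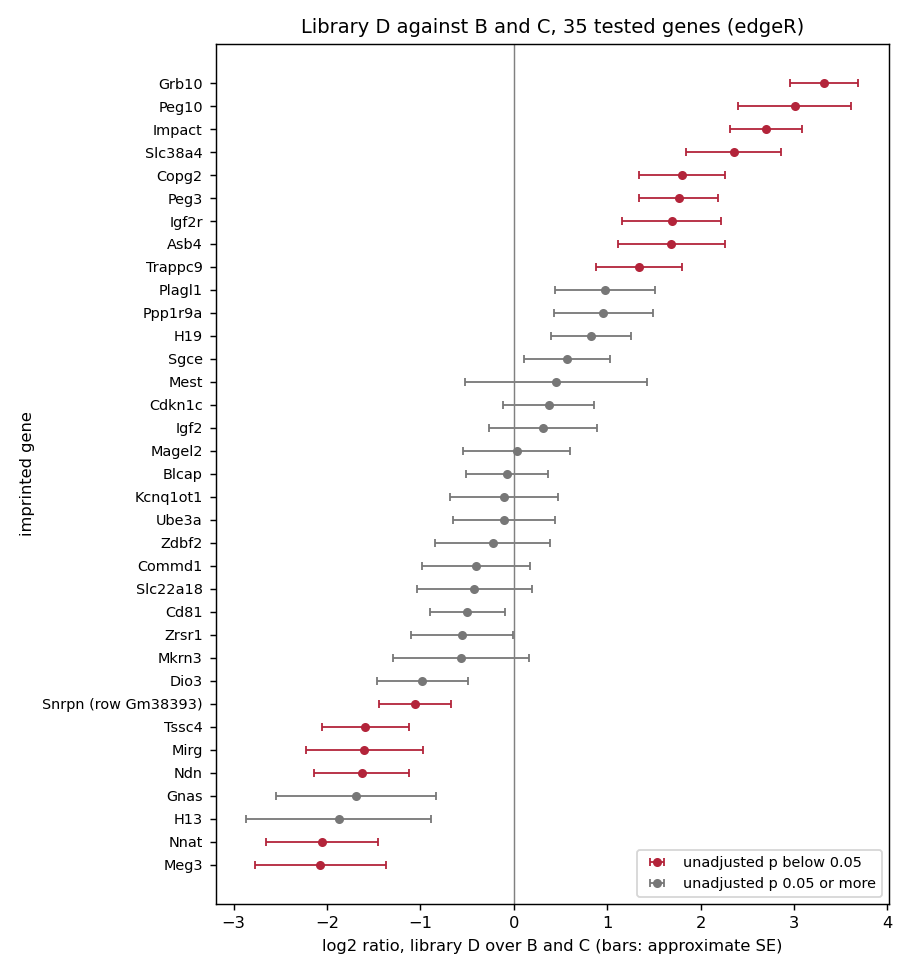
Log2 ratio of library D over B and C by edgeR for the 35 imprinted genes tested, with approximate SE as bars. Red marks an unadjusted p under 0.05, 9 genes higher and 6 lower, and none passed after adjustment over 13182 genes. Grb10 is at the top with 3.32 and Meg3 at the bottom with -2.07.

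Gene length moved with the ratio in D. Across 13182 genes, which are not independent replicates, the Spearman correlation of log2 ratio and length was 0.48 in D, and over the 35 imprinted genes 0.17. After a smooth trend in log length was taken out of each library the values were 0.03 and -0.09. Ratios in D then became smaller for Grb10 (2.66), Peg3 (1.08), Igf2r (1.02), Trappc9 (0.79), Nnat (-1.40), Ndn (-0.91) and Tssc4 (-0.93). Ratios of Impact (2.60), Peg10 (2.45), Slc38a4 (2.12), Copg2 (1.49) and Asb4 (1.46) also became smaller, by less in some cases. They became larger in size for Meg3 (-2.76), Mirg (-2.21) and the Snrpn row (-1.64). All 15 named ratios kept their direction, and no gene passed the adjusted threshold in D in that fit.

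**Figure D4:**
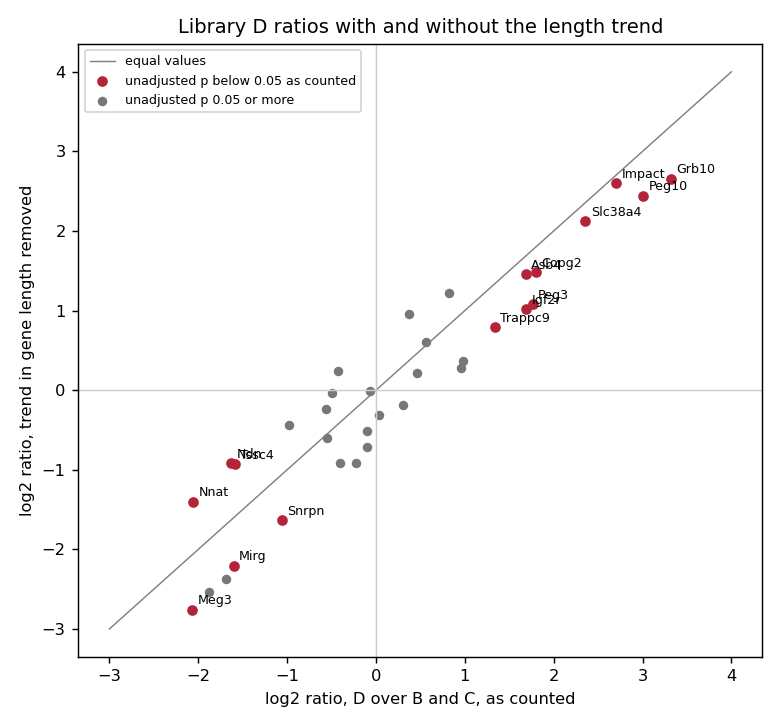
Log2 ratio of library D over B and C for the 35 tested imprinted genes as counted (x axis) and after removal of the trend in gene length (y axis). Points on the grey line have equal values; Grb10 moves from 3.32 to 2.66 and Nnat from -2.06 to -1.40, and every labelled gene stays on its side of 0 (Snrpn stands for the Snrpn row).

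Library C was set apart by 98 genes called higher by edgeR (0.743% of 13182) and none lower (0%), and no imprinted gene was among them. At an unadjusted p under 0.05, H13 was higher, beside 4.29% of all genes, and Grb10 and Impact were lower, beside 2.09%. The lower values rest on library D: against B alone, without D, the log2 ratios in C went from -2.55 to -0.16 for Grb10 and from -1.91 to -0.01 for Impact. H13 in C had 33.1 TPM against 7.18 and 9.08, a log2 ratio of 2.44 ± 0.84 (edgeR adjusted p = 0.210), and after removal of the length trend 2.69 (adjusted p = 0.00736), where 1.81% of all genes were called higher and 0.22% lower. Library B had no call by edgeR, with 0.281% of genes higher and 0.645% lower at an unadjusted p under 0.05. Mest and Peg10 were lower there, with log2 ratios of -2.49 ± 1.25 and -2.89 ± 1.34. Without D the ratio of Peg10 was -1.11 and that of Mest -2.65. The spread between pools, as edgeR's biological coefficient of variation, had a median of 0.517 in the 35 imprinted genes and 0.491 in all genes tested. It was highest for Grb10 at 0.743 and lowest for Slc22a18 at 0.429. This order changed with the libraries used: the highest value was that of Nnat without B, of the Snrpn row without C and of Mest without D.

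Transcripts of 15 of 20 imprint control factors were detected, led by Trim28, the co-repressor scaffold (54.3, 59.3 and 87.7 TPM in B, C and D), Zfp57 (39.2, 16.9 and 80.9 TPM), Dnmt1, the maintenance methyltransferase (16.8, 12.2 and 64.7 TPM), and Eed, a Polycomb subunit, with a mean of 26.6 ± 11.7 TPM (SD, n = 3). In D, 15 of 17 tested had a higher ratio, beside 49.5% of all genes, and 6 did so at an unadjusted p under 0.05 (35.3%, beside 12.6% of all genes). None was called. Of 12 IGF axis partners 11 were detected. Igfbp5, a secreted IGF-binding protein, was at 71.4, 72.4 and 599 TPM, far higher in D, and the RNA-binding proteins Igf2bp3, Igf2bp1 and Igf2bp2 were at means of 41.3, 38.3 and 26.8 TPM. In D, 4 of 11 tested IGF axis genes were higher at an unadjusted p under 0.05 (36.4%, beside 12.6% of all genes) and none lower (beside 8.36%).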

How the data were processed

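RNA of 3 pooled libraries (1 group) was sequenced after amplification of 10 ng RNA with a SMARTer low-input kit, which keeps no strand information, per the labels' protocols. The authors deposited raw read counts, CPM and RPKM per gene; per the file headers, CPM is the count scaled to the file total and RPKM that value per kilobase. Subread, featureCounts 1.4.5 and GRCm38.p2 appear in the submitters' processing notes, without roles. Annotation release, strand setting and read filters: not given in the sources used here. Genes were named by Ensembl identifier (40254 of 41388 with a symbol). All results used the deposited counts: TPM from count and length, and edgeR 4.0.16 (quasi-likelihood, TMM, filterByExpr with 1 group, Benjamini-Hochberg threshold 0.05). Standard errors are approximate, from the log2 ratio and its F statistic. Alternatives were DESeq2 1.42.0, its size factors, no filter, other detection limits and pseudocounts, each library left out, and removal of a lowess trend in log length (span 0.3, fitted where the mean count reached 10). Leaving out Snrpn and another filter grouping were added after seeing the data. The fit of library D was also run on simulated counts, and the outcome is not given here. Exon overlap ignored strand (bedtools 2.31.1); 19 of the 45 genes share exon bases with another gene. The imprinted genes, pairs and lists were chosen with earlier results of these data known. Every imprinted gene is named; of the other lists, the 4 with the highest mean TPM and all that pass the test. The labels describe separate pools of embryos and give no dates. In each library's fit the p-values rest on the spread between the other pair of pools, which may be partly technical. The lone pool adds nothing to that spread.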

Additional observations from a re-analysis of the deposited data

How the results depend on the processing

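No paired analysis was possible because the libraries form a single group. Of 304 alternative values, 267 counted as unchanged: they kept their call, stayed within the allowed spread or, with no p-value to compare, kept their direction. Another 22 moved and 15 passed the threshold where the reported value did not. Ratios of named genes with a library left out had no p-value, so they counted as unchanged whatever their size. Grb10 in C, for example, had a log2 ratio of -2.55 as reported and -0.16 without D. The named imprinted genes were chosen by the fits to these same libraries, which made a stable direction likely. All 140 of their ratios kept their direction. The median log2 ratios of the 35 tested genes did not: in library B it was -0.13 as reported, 0.04 without C and 0.16 without D (15, 18 and 21 genes higher), and in library D it was -0.07 as reported, -0.04 without C and 0.16 without B. The number detected, 30, was 34 at 0.5 TPM, 21 at 5 TPM, and 30 to 32 with a library left out. At a limit of 1 CPM, which does not divide by gene length, it was 35. In library D, where edgeR called 0 genes, the unfiltered fit called 1534 genes and 10 imprinted genes, and DESeq2 called 619 and 5. In library C, where edgeR called 98, DESeq2 called 150 and the fit with the length trend removed 267, with 1 imprinted gene (H13). There, imprinted genes at an unadjusted p under 0.05 numbered 3 as reported, 1 with DESeq2's size factors and 5 with the length trend removed. In library B they numbered 2 as reported and 1 with DESeq2's size factors, with the length trend removed and with the added filter, and DESeq2 called 1 gene. The causes were not tested. The libraries' ratios rest on 1 library against a pair, and the low counts of Meg3, Gnas, Airn and Usp29 limit their precision.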

Other observations

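Further imprinted genes outside the 45 were measured as well. Of 26 with a row, 12 were detected. Nap1l4, a histone chaperone, was at 369, 203 and 502 TPM in B, C and D, and Mcts2, a retrogene within H13, at 213, 140 and 131 TPM. Peg12 was at 32.9, 20.7 and 229 TPM and Inpp5f, an inositol phosphatase, at 36.6, 19.5 and 140 TPM. Both were highest in D, with edgeR log2 ratios of 2.40 ± 0.44 (adjusted p = 0.191) and 1.63 ± 0.47 (adjusted p = 0.199). At an unadjusted p under 0.05 in D, 3 of 16 tested were higher (18.8%, beside 12.6% of all genes) and 2 lower (12.5%, beside 8.36%).

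Gapdh, a gene often used as a reference, was counted 796, 299 and 272 times in these libraries, whereas Actb had 212332, 88439 and 443243.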
